A study of Mus musculus with 64 samples.

Results

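The hepatocyte bile and organic anion transporters examined here are 10 of the 23338 genes counted in every library. They were taken by symbol, with no threshold on their values, although earlier results of these data were known when they were chosen. They are the basolateral uptake carriers Slc10a1, Slco1a1, Slco1a4, Slco1b2 and Slco2b1, and the canalicular exporters Abcb11, Abcc2, Abcb4, Abcg5 and Abcg8. Each symbol matched 1 row of the deposited counts. In the GENCODE annotation of GRCm38, the assembly of the mm10 build used for the counts, they lie at chr12:80953183-80968705 (Slc10a1, minus strand), chr6:141907282-141946962 (Slco1a1, minus), chr6:141805440-141856199 (Slco1a4, minus), chr6:141629518-141686646 (Slco1b2, plus) and chr7:99657804-99711340 (Slco2b1, minus). The exporters lie at chr2:69238282-69342616 (Abcb11, minus), chr19:43782192-43840740 (Abcc2, plus), chr5:8893717-8959231 (Abcb4, plus), chr17:84658234-84683011 (Abcg5, minus) and chr17:84676302-84700333 (Abcg8, plus). Counts cover the exons of each gene. Their levels were followed across the 4 stages of the series and between genders within fetal and adult liver.

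Hepatocytes take up bile acids and other organic anions from the blood across the basolateral (sinusoidal) membrane and secrete them across the canalicular membrane into bile. Uptake depends on the sodium-coupled bile acid carrier encoded by Slc10a1 and on sodium-independent carriers of the Slco family. Secretion depends on ATP-driven pumps of the Abc family, which move bile acids, conjugated anions, phosphatidylcholine and sterols. The fetal liver is also a site of blood formation, so that a whole liver holds many cells that are not hepatocytes.

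RNA sequencing was carried out on 64 samples of C57BL/6 mice, of the C57BL/6 J substrain according to the methods of the study, with no genetic modification or treatment named in the labels. There were 4 embryonic stem (ES) cell lines, 2 male and 2 female, each derived from an eight-cell embryo and grown in 2i medium, which contains inhibitors of MEK and GSK3. The 12 eight-cell embryos, 6 male and 6 female, were collected at 2.5 days post-coitum (dpc), and each library holds 1 embryo amplified by a single-cell PCR protocol. The 24 fetal livers, 12 male and 12 female, were collected late in gestation, and the 24 adult livers, 12 male and 12 female, from mice of 15 to 20 weeks. ES cell and liver libraries were made from total RNA with a stranded kit, so embryo stage and library protocol cannot be told apart. Values are CPM, the reads of a gene scaled to an equal total of reads on genes in every library.

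Reads on genes ranged from 9857929 to 10386931 in ES cells, 4659656 to 7725432 in embryos and 5145371 to 8499603 in fetal livers, and adult livers were the shallowest with 1567583 to 4757610. A count of 3 reads corresponded to 0.353 to 0.583 CPM in fetal and 0.631 to 1.91 CPM in adult liver, and such limits cover counting error only. All 10 hepatocyte markers were detected in both liver stages, with a summed level of 48347 to 64188 CPM in fetal and 60083 to 85597 CPM in adult liver. The summed level of 8 erythroid markers was 4444 to 6522 CPM in fetal liver and 15.7 to 199 CPM in adult liver. Hba-a1 and Hbb-b1 were at 0 in adult liver, but Hba-a1 was also at 0 in every fetal female, so its absence is not informative. The summed level of 3 neutrophil markers was 530 to 941 CPM in fetal and at most 2.49 CPM in adult liver. In fetal liver the share of counted reads that lay outside genes was 39.9% to 49.0% in males and 34.1% to 38.1% in females, without overlap.

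A few fetal libraries stood apart. Fetal female 22 had 48.5 CPM of Mup20, a major urinary protein gene, against 0 to 4.47 CPM in the 23 others. This library, labelled female, also had 10 reads (1.44 CPM) of the Y-linked gene Ddx3y and 5 reads (0.722 CPM) of Eif2s3y. The other 11 fetal females had at most 3 reads of Ddx3y and none of Eif2s3y. Fetal males had 160 to 219 CPM of Ddx3y and 62.0 to 101 CPM of Eif2s3y. The origin of the reads in female 22 was not tested. Fetal female 14 had 750 CPM over 3 intestine markers against 4.33 to 10.9 CPM in the 23 others, and 398 CPM over 6 cholangiocyte markers against 30.0 to 148 CPM. Exocrine pancreas markers summed to 89.1 to 650 CPM in 5 fetal livers and to at most 23.6 CPM in the other 19. The stage calls, the ratios of summed Slco1a1 and Slco1a4 levels and the Slco1a1 interaction are given with and without females 14 and 22. Other fetal ranges and the fetal correlations include both libraries unless stated.

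Promoter sequences of 2 pairs of neighbouring members are shown first. Slco1a1 and Slco1a4 are neighbouring genes on chromosome 6, both on the minus strand, and they were the 2 members called different between adult males and females. Abcg5 and Abcg8 lie head to head on chromosome 17 and encode the partners of 1 sterol exporter. Each window of 300 bases runs from 250 bases before the transcription start to 50 bases after it, 5′ to 3′ on the strand of the gene, from RefSeq on GRCm38.p6. Capitals mark matches on either strand to AGGTCA, the core element of many nuclear receptors, or to the TATA box, searched as TATAAA. Neither the STAT5 element, searched as TTCNNNGAA, nor the HNF1 element, searched as GTTAAT, matched in these windows.
Slco1a1, chr6:141946913-141947212, minus strand: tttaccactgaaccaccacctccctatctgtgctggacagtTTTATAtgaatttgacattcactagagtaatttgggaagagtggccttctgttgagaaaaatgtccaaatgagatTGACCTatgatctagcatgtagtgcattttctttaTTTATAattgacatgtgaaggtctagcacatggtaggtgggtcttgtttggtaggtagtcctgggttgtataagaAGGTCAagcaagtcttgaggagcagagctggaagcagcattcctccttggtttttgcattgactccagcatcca
Slco1a4, chr6:141856171-141856470, minus strand: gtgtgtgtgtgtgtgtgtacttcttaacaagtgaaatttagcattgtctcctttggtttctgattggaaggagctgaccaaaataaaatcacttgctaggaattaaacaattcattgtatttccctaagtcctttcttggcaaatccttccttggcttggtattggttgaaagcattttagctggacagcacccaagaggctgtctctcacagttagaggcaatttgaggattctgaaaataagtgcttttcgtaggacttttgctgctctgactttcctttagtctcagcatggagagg
Abcg8, chr17:84682871-84683170, plus strand: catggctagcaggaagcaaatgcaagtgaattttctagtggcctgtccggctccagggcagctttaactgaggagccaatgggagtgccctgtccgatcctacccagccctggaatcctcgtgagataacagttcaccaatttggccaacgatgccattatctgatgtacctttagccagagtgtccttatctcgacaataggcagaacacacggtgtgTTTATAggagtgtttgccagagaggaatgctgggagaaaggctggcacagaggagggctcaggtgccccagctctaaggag
The Slco1a1 window held AGGTCA at -134 and -24 and TATAAA at -209 and -99 from the start, while the Slco1a4 window held none of the 4 motifs. Of these Slco1a1 matches, only AGGTCA at -24 was on the strand of the gene, and the others read on the opposite strand. The longest run of bases shared by these 2 windows was 9. The Abcg8 window held TATAAA at -31, but on the strand opposite to Abcg8, which is the strand of Abcg5. The same bases lie at -84 from the start of Abcg5. That start lies at position 141 of the same window, 110 bases from the start of Abcg8.

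All 10 members had a RefSeq promoter window, 14 windows in all because 3 genes have alternative starts. AGGTCA was found in 5 of the 14 windows, those of 5 members including Abcb11 at -56 and Abcc2 at -49, and in 16.3% of the 32851 windows of all genes. TATAAA was found in 5 of the 14 windows and in 13.6% of all windows. TTCNNNGAA was found in 4 of the 14, windows of Slc10a1, Slco1b2 and Slco2b1, and in 8.30% of all windows, and GTTAAT in 1 of the 14, of Slco1b2, and in 7.10% of all windows. A match is a description of these letters and not evidence of a bound site, and the absence of a match covers these windows only.

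Every member was higher in adult than in fetal liver, and no adult library overlapped any fetal library for any of the 10 genes. The fitted log2 (adult/fetal) ranged from 1.79 for Abcb4 to 11.96 for Slco1a4. All 10 members were called higher by edgeR's quasi-likelihood test (Benjamini-Hochberg adjusted p under 0.1 over all genes tested and an absolute log2 fold change above 0.5), where 31.7% of 13026 genes tested were called higher and 35.4% lower. Ranges that did not overlap, with adult liver higher, were found for 10.3% of all genes and for 10 of 10 members. The median log2 (adult/fetal) of the members was 5.67 and that of all genes was -0.05. In these whole livers, a lower share of hepatocytes and less RNA per hepatocyte cannot be told apart, and the erythroid and neutrophil levels given above differed between the stages in the opposite direction. Their part in the result was not tested. The p-values measure the spread between libraries, each labelled as a separate liver.

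**Figure D1:**
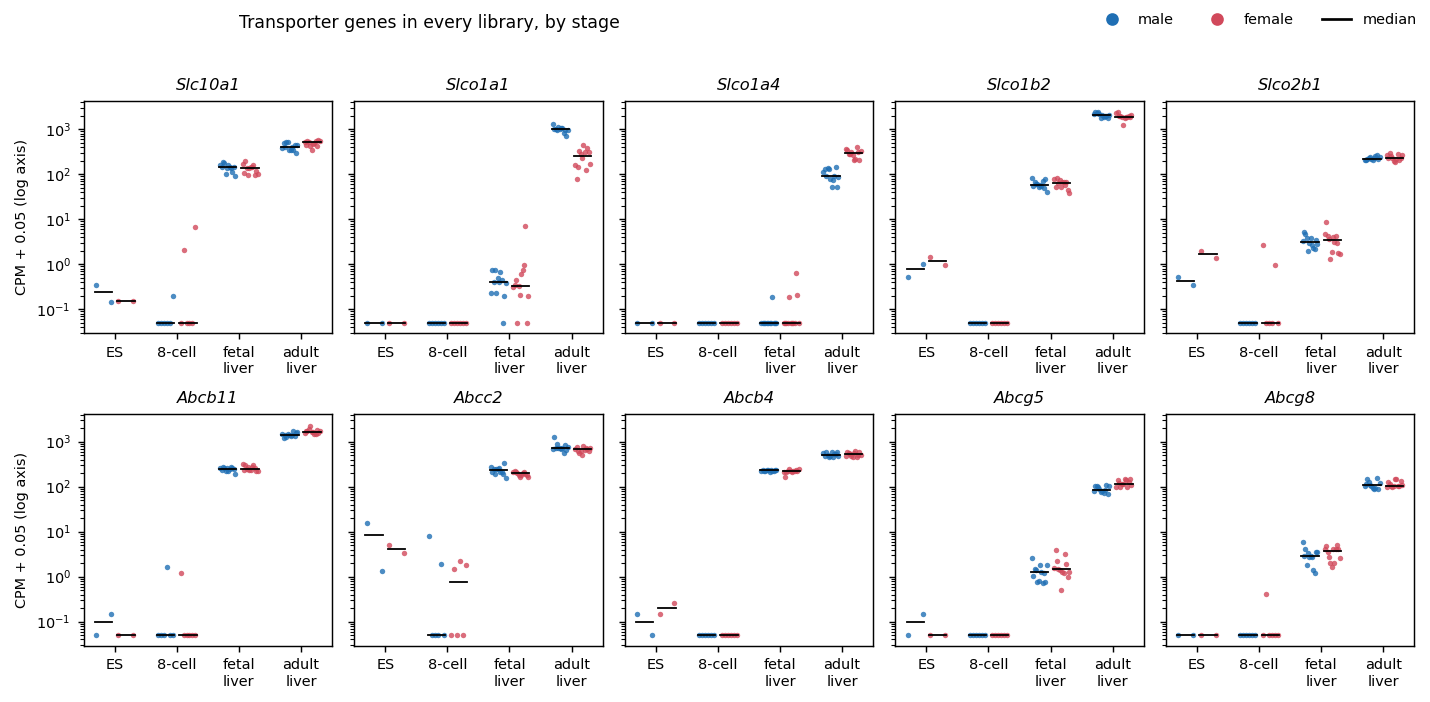
CPM of the 10 members in each of the 64 libraries, with 0.05 added and drawn on a log axis, by stage and gender, with the median of each gender within each stage as a line. The adult livers lie above the fetal livers in every panel, and Slco1a1, Slco1a4, Slco2b1, Abcg5 and Abcg8 have fetal medians of 0 to 3.23 CPM over both genders.

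Among the uptake carriers, Slc10a1 encodes the sodium-taurocholate cotransporter NTCP, the main carrier of conjugated bile acids. Its level was lowest at 90.3, median 142 and highest 198 CPM in fetal liver, and lowest at 301, median 451 and highest 582 CPM in adult liver. The fetal and adult ranges did not overlap, and the log2 (adult/fetal) was 2.28 (SE 0.0825, n = 24 and 24, adjusted p = 3.43e-30). Slco1b2, the rodent OATP1B carrier of bilirubin, bile acids and many drugs, went from 39.2, 61.0 and 85.1 CPM (lowest, median and highest) in fetal liver to 1262, 2018 and 2455 CPM in adult liver. All adult livers were far above all fetal ones, with a log2 of 5.59 (SE 0.0848, adjusted p = 1.41e-48). Slco2b1, a carrier of steroid sulfates found in liver and in other tissues, went from 1.24, 3.23 and 8.84 CPM in fetal liver to 190, 229 and 298 CPM in adult liver. The highest fetal value was that of female 14, the library with intestine markers, and without females 14 and 22 the highest fetal value was 5.30 CPM. The log2 was 6.67 (SE 0.105, adjusted p = 1.65e-46).

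Slco1a1 and Slco1a4 encode 2 members of the OATP1A group, which carry bile acids, steroid conjugates and other organic anions. Both were near the limit of detection in the fetus. Slco1a1 had 0 to 8 reads in 23 fetal livers and 50 reads, 7.22 CPM, in female 22, against 78.3 to 1296 CPM in adult livers. Summed over libraries, the adult level was 1023 times the fetal level (exact 95% counting interval 847 to 1248), and 1805 times (1390 to 2390) without females 14 and 22. By gender the ratio was 2612 (1829 to 3871) in males and 270 (216 to 342) in females, or 679 (463 to 1041) without those 2 females. Such intervals cover counting error only and not the spread between libraries. The fitted log2 was 10.21 (SE 0.263, adjusted p = 5.47e-35). Slco1a4 had no read in 20 of 24 fetal livers and 7 reads in all, 4 of them in female 22, against 51.6 to 412 CPM in adult livers. The ratio of the summed levels was 4412 (2141 to 10977), or 9417 (3222 to 45672) without those 2 livers, where 3 fetal reads were left. The fitted log2 was 11.96 (SE 0.200, adjusted p = 2.44e-44), a value that depends on the prior count given to libraries without reads. The other genes of the chromosome 6 cluster, Slco1a5, Slco1a6 and Slco1c1, were at most at 0.635 CPM in any liver.

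Of the canalicular exporters, 3 were well above the detection limit in every fetal liver. Abcb11, the bile salt export pump, was already at 189, 252 and 318 CPM (lowest, median and highest) in fetal liver and reached 1202, 1537 and 2181 CPM in adult liver, a log2 of 3.19 (SE 0.0517, adjusted p = 1.24e-49). Abcc2, which exports bilirubin glucuronides and other conjugates, was at 157, 214 and 340 CPM in fetal and 506, 705 and 1295 CPM in adult liver, a log2 of 2.31 (SE 0.0703, adjusted p = 1.26e-34). Abcb4, which moves phosphatidylcholine into bile, had the smallest rise of the 10 genes. Its level was 163, 226 and 252 CPM in fetal and 451, 515 and 624 CPM in adult liver, a log2 of 1.79 (SE 0.0428, adjusted p = 2.13e-41). Without females 14 and 22 its lowest fetal value was 207 CPM. For these 3 genes the lowest adult value was above the highest fetal one. Exons of Abcb11 share 136 and 19 bases with the antisense genes Gm13613 and Gm13614, and those of Slco2b1 share 471 and 78 bases with Gm15635 and Gm34280, so reads there are uncertain if strand was not used in the counting. Of the 50-base words of Abcb4 transcripts 2.83% also occur in other genes, more than for any other member.

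Abcg5 and Abcg8, whose products pair to export cholesterol and plant sterols, were low in fetal liver. Abcg5 was at 0.467, 1.31 and 3.91 CPM in fetal and 69.6, 102 and 149 CPM in adult liver, a log2 of 6.69 (SE 0.103, adjusted p = 4.09e-49). Abcg8 was at 1.17, 3.002 and 5.92 CPM in fetal and 88.3, 106 and 160 CPM in adult liver, a log2 of 5.76 (SE 0.104, adjusted p = 2.45e-44). Neither gene overlapped between the stages.

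The size of these rises depended on the scaling. The median log2 (adult/fetal) of all genes was -0.05 with TMM factors, -0.61 with library totals alone and -1.18 when libraries were scaled to the hepatocyte markers. The calls of all genes divided into 4132 higher and 4610 lower with TMM factors, 2403 and 7026 with library totals, and 1439 and 9341 with hepatocyte scaling. The lowest member value, that of Abcb4, was 1.22 with library totals and 0.65 with hepatocyte scaling. All 10 members were called higher in each of the 12 alternative fits, including those without females 14 and 22.

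**Figure D2:**
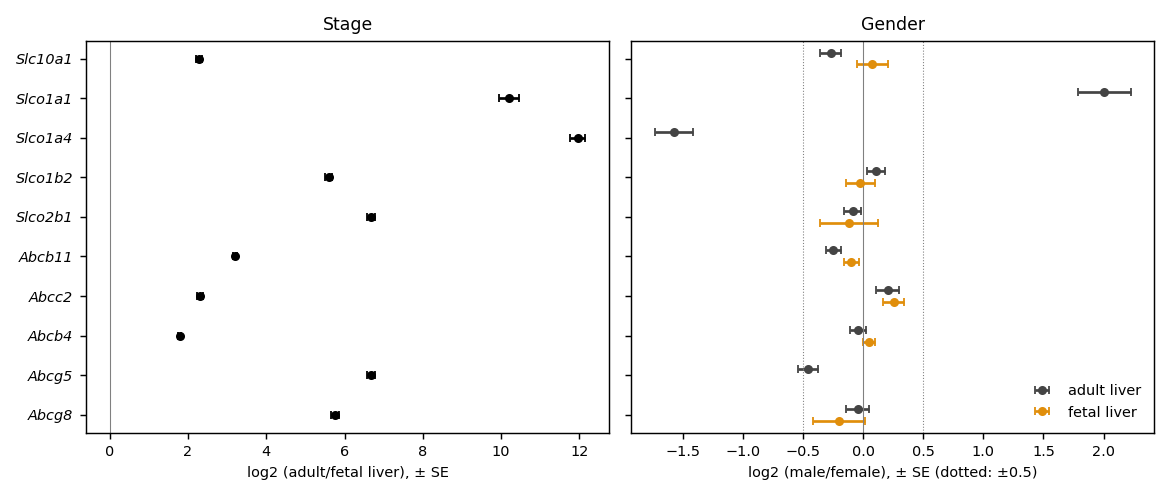
Left, log2 (adult/fetal liver) of each member with its SE, and right, log2 (male/female) with its SE in adult (grey) and fetal (orange) liver, with dotted lines at an absolute log2 of 0.5. The stage values run from 1.79 to 11.96, and on the right only Slco1a1 at 2.01 and Slco1a4 at -1.57 pass the dotted lines, while 3 members have no fetal gender value because they were under the expression filter.

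Levels of different genes were compared per kilobase of summed exon length (CPM per kb). In fetal liver the order by median was Slc10a1 at 64.7, Abcb4 at 55.4, Abcb11 at 49.0, Abcc2 at 26.6 and Slco1b2 at 18.4 CPM per kb, each overlapping its neighbour in range. A step without overlap separated Slco1b2 from the remaining 5, which had medians of 0.801 CPM per kb or less. In adult males Slco1b2 led at 632 CPM per kb, without overlap with Abcb11 at 278, which overlapped Slco1a1 at 250. In adult females Slco1b2 at 575 and Abcb11 at 320 overlapped, and Slc10a1 at 233 followed without overlap. The order of the uptake carriers thus changed with stage: Slco1b2 was below Slc10a1 in fetal liver and above it in both genders of adult liver. Slco1a1 had rank 3 of 10 in adult males and rank 7 in adult females at 63.1 CPM per kb, and Slco1a4 had rank 10 in males at 24.3 and rank 6 in females at 78.4.

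In ES cells and embryos the members were at or near 0. Abcc2 and Slco1b2 were the only members above 3 reads in all 4 ES lines. Abcc2 was at 15.7 and 1.26 CPM in the male lines and 5.00 and 3.25 CPM in the female lines, so that the 2 male lines differed more from each other than the genders did. Slco1b2 was at 0.481 and 0.972 CPM in the male and 1.40 and 0.913 CPM in the female lines, and Slco2b1 at 0.481, 0.292, 1.90 and 1.32 CPM. Each of the other 7 members had at most 3 reads in any ES line, and Slco1a1 and Slco1a4 had none in the 4 lines and the 12 embryos. In embryos, Abcc2 was found in 5 of 12 libraries, at 1.45 to 7.88 CPM. Slc10a1 was found in 3 embryos, at 0.150, 1.99 and 6.59 CPM, and Abcb11 and Slco2b1 in 2 each. Ordered by median, adult liver came first and fetal liver second for 9 members, and for Slco1a4 the medians of fetal liver, ES cells and embryos were all 0. Fetal liver overlapped the next stage for Slco1a1, Slco1a4 and Slco2b1 and not for the other 7.

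In fetal liver no member was called different between genders. Of the 10 members, 7 had enough reads to be tested, while Slco1a1, Slco1a4 and Abcg5 were under the filter. Of all genes tested, 4.64% were called, against 0 of 7 members, with 1 member at an unadjusted p under 0.05 and none called by DESeq2. Male and female ranges overlapped for all 10, where 1.76% of all genes had males higher without overlap and 0.193% lower. At any fold size, 1 of 7 members had an adjusted p under 0.1, against 37.2% of genes. That gene was Abcc2, at 157, 230 and 340 CPM (lowest, median and highest) in males and 166, 196 and 225 CPM in females, with a log2 (male/female) of 0.25 (SE 0.0913, adjusted p = 0.0379). The share of reads outside genes moved with gender in these livers, as given above, and with that share as a covariate, an alternative chosen after seeing the data, the log2 of Abcc2 was -0.15 (adjusted p = 0.988). The count of genes called in fetal liver went from 600 to 9 in the same fit. As the share did not overlap between the genders, this fit cannot tell a gender difference from a difference in that share. For the other 6 tested members the log2 values lay between -0.20 for Abcg8 and 0.08 for Slc10a1. With the same covariate that of Slco1b2 went from -0.02 to -0.52 (SE 0.233, adjusted p = 0.881). Their approximate 95% intervals were narrowest for Abcb4, from -0.05 to 0.14, and widest for Slco2b1, from -0.60 to 0.36.

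In adult liver 2 members differed between genders, and in opposite directions. Slco1a1 was at 725, 1013 and 1296 CPM (lowest, median and highest) in males and at 78.3, 256 and 447 CPM in females. Every male was above every female, and the log2 (male/female) was 2.01 (SE 0.219, n = 12 and 12, adjusted p = 1.93e-07), a 4.02-fold difference. For Slco1a4 the 3 values were 51.6, 92.9 and 148 CPM in males, against 209, 300 and 412 CPM in females. Here every female was above every male, with a log2 of -1.57 (SE 0.159, adjusted p = 4.04e-08), a level 2.97-fold higher in females. Of all 10372 genes tested, 3.01% were called higher in males and 6.49% lower, against 1 member of 10 in each direction. Ranges without overlap were found for 1.35% of genes with males higher and 1.45% with males lower, and for the same 2 members. Over 10 alternative fits the log2 of Slco1a1 was 2.00 to 2.14 and that of Slco1a4 was -1.70 to -1.46, and both were called in each. Of the 5321 different 50-base words in Slco1a1 transcripts, 84 also occur in Slco1a4.

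**Figure D3:**
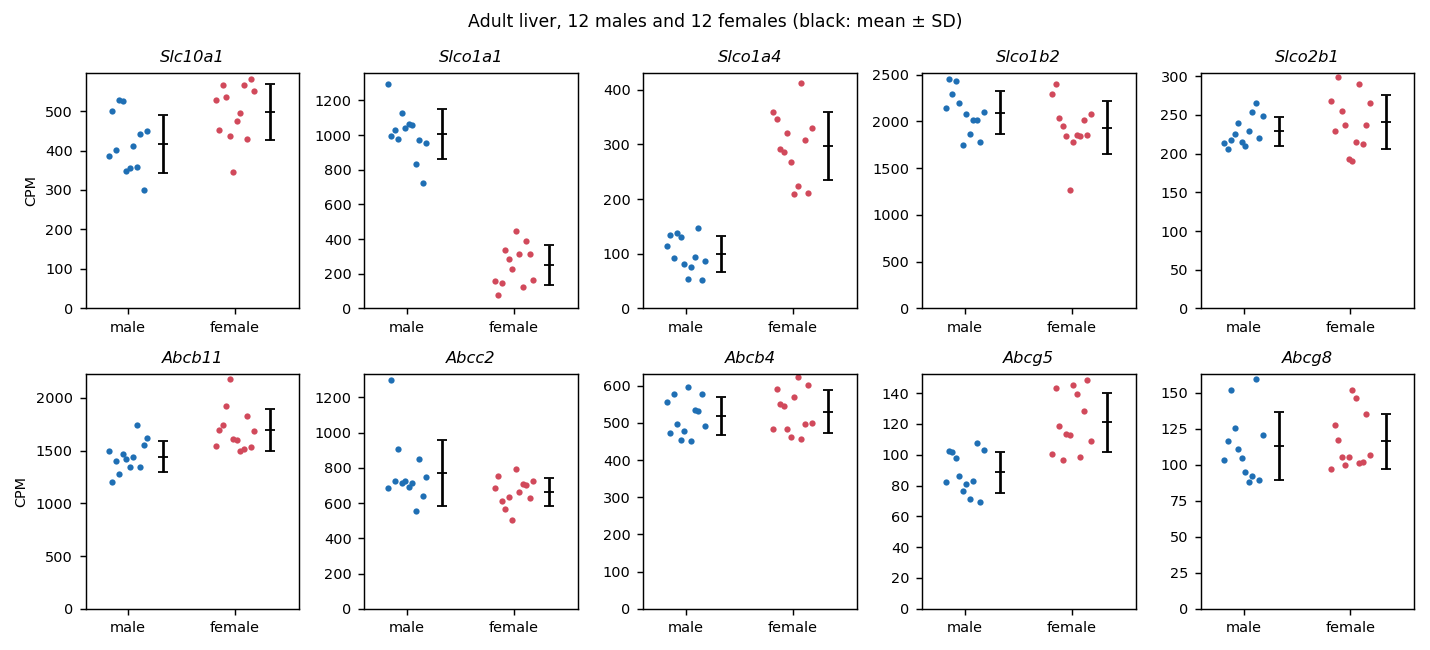
CPM of each member in the 12 male and 12 female adult livers, 1 point per library, on linear axes that start at 0, with the mean ± SD in black. Slco1a1 (1006 ± 142 in males, 249 ± 116 in females) and Slco1a4 (99.9 ± 32.7 and 297 ± 62.3) separate the genders completely, and the other 8 members overlap.

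The remaining 8 members overlapped between adult males and females. At any fold size, 5 of 10 members had an adjusted p under 0.1, against 32.8% of genes, and 3 of these were under the fold threshold and lower in males. Abcg5 averaged 88.5 ± 13.4 CPM in the 12 males, less than the 121 ± 19.2 CPM (mean ± SD) of the 12 females, with a log2 of -0.46 (SE 0.0802, adjusted p = 4.98e-05). Abcb11 averaged 1441 ± 147 CPM in males against 1697 ± 202 CPM in females, with a log2 of -0.25 (SE 0.0646, adjusted p = 0.00442). For Slc10a1 the means were 416 ± 73.4 CPM (males) against 497 ± 71.0 CPM (females), with a log2 of -0.27 (SE 0.0864, adjusted p = 0.0212). With libraries scaled to the hepatocyte markers, Abcg5 stayed under an adjusted p of 0.1 (log2 -0.34, adjusted p = 0.00442), whereas Abcb11 (log2 -0.13, adjusted p = 0.168) and Slc10a1 (log2 -0.15, adjusted p = 0.269) did not. The hepatocyte marker sum was 60083 to 76606 CPM in males and 69266 to 85597 CPM in females, and hepatocyte scaling moved the median log2 of all genes to 0.12 and the calls from 312 higher and 673 lower to 567 and 432.

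For the last 5 members no difference between adult genders was detected with TMM factors. The log2 (male/female) and its approximate 95% interval was 0.10 (-0.04 to 0.25) for Slco1b2, -0.09 (-0.22 to 0.05) for Slco2b1 and 0.20 (0.01 to 0.39, adjusted p = 0.125) for Abcc2. It was -0.04 (-0.17 to 0.08) for Abcb4 and -0.04 (-0.23 to 0.15) for Abcg8. The signs of Slco2b1, Abcb4 and Abcg8 turned with hepatocyte scaling, to 0.03, 0.07 and 0.08. The same scaling brought Abcc2 (log2 0.31, adjusted p = 0.0218) and Slco1b2 (log2 0.21, adjusted p = 0.0836) under an adjusted p of 0.1, with males higher and the fold threshold not passed. For Abcc2 this was also so with the library total as a covariate (adjusted p = 0.0439) and in the joint fit of the livers (adjusted p = 0.0752). The highest Abcc2 value, 1295 CPM, was that of adult male 2. Some markers of other cells also moved with gender in adult liver. The erythroid sum was 161 to 199 CPM in males and 15.7 to 45.8 CPM in females, nearly all of it Alas2 (155 to 193 and 10.9 to 40.0 CPM). Only 1 of the 8 erythroid markers had enough reads to be tested there, and Slc4a1 was at most at 3.38 CPM, so the sum describes Alas2 and not the list. Of 5 macrophage markers, 3 were called lower in males. The summed level of those 5 markers was 241 to 455 CPM in males and 330 to 746 CPM in females, and the part of these cells in the results was not tested.

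Whether the gender difference itself changed between fetal and adult liver was tested as an interaction in the 48 livers together. Of the 10 members only Slco1a1 was called, with an adult minus fetal log2 (male/female) of 3.23 (SE 0.812, adjusted p = 0.00250). Of all genes, 5.18% were called with a larger and 8.53% with a smaller male/female value in adult liver. These were 675 and 1111 genes, against 916 and 871 with hepatocyte scaling. The value rested in part on fetal female 22: without it the difference was 1.94 (SE 0.857, adjusted p = 0.0914), and without females 14 and 22 it was 1.97 (SE 0.924, adjusted p = 0.113) and no longer called. Fetal males had 0 to 5 reads of Slco1a1 each, so the fetal gender value behind this contrast comes from few reads. For Slco1a4 the interaction was -0.29 (approximate 95% interval -1.74 to 1.16), with 1 fetal male read and 6 fetal female reads in all.

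Abcg5 and Abcg8 moved together from liver to liver. Over the 24 adult livers, after subtraction of the gender mean, log2 (CPM + 0.5) of the 2 genes correlated with Pearson's r = 0.85 and Spearman's rho = 0.83 (permutation p = 1e-05 and 2e-05, the first the smallest that the resamples give for a correlation, adjusted p = 0.00045 and 0.0009 over 45 pairs). Without the 2 livers farthest from the median r was 0.83, and it was 0.88 in males and 0.84 in females. The sterol exporter genes share 40 exon bases on opposite strands, and whether the counting used strand is not given in the sources used here. Of the 45 pairs of members, 3 had an adjusted p of Pearson's r under 0.05. The others were Slc10a1 with Slco1b2 (r = 0.62, rho = 0.52, permutation p = 0.0016, adjusted p = 0.0252) and Slco1b2 with Abcc2 (r = 0.55, rho = 0.42, permutation p = 0.00168, adjusted p = 0.0252). For their rho the adjusted p was 0.089 and 0.137, and without the 2 farthest livers r was 0.36 and 0.45.

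Although they moved together, the genes of the sterol exporter did not have the same balance in the genders. There were 1.11, 1.27 and 1.49 Abcg8 reads per Abcg5 read (lowest, median and highest) in adult males and 0.792, 0.970 and 1.09 in adult females. The ranges did not overlap, and the log2 of the ratio was 0.40 higher in males (SE 0.0548, permutation p = 2e-05, the smallest that a two-sided test of a difference in means gives with 100000 resamples). This ratio was chosen after the values were seen. In the same livers the level of Abcg5 was lower in males, as given above, while that of Abcg8 was 113 ± 23.4 CPM in males and 116 ± 19.2 CPM in females.

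**Figure D4:**
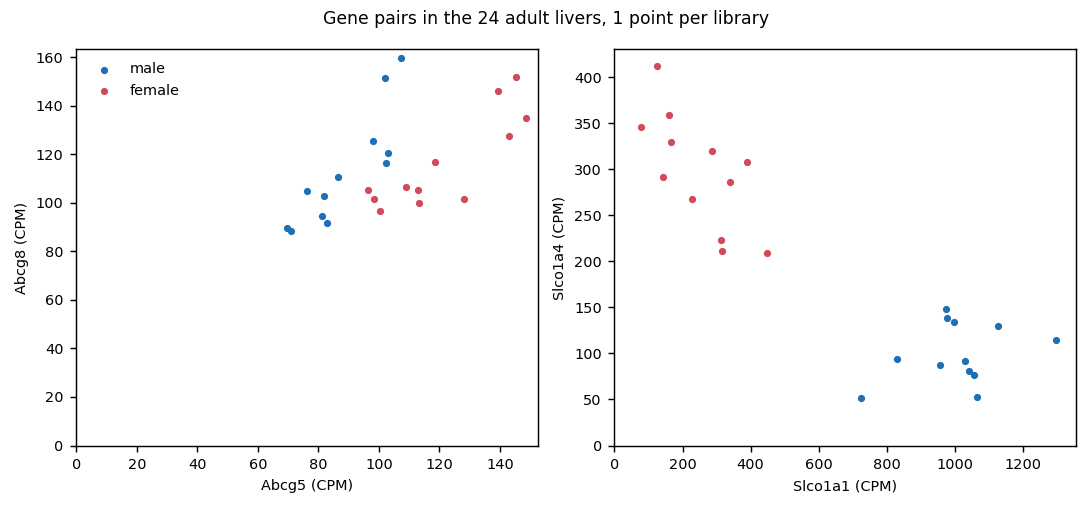
Left, Abcg8 against Abcg5, and right, Slco1a4 against Slco1a1, in CPM for the 24 adult livers, males in blue and females in red. Abcg8 rises with Abcg5 in both genders along separate lines, with the males at more Abcg8 per Abcg5, and the Slco1a pair forms 2 separate clusters, 1 for each gender.

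Slco1a1 and Slco1a4 formed separate clusters by gender, so their relation was read within each gender. In females the log2 levels gave r = -0.70 and rho = -0.73 (permutation p = 0.0127, adjusted p = 0.104 over 90 relations), and r = -0.60 without the 2 farthest livers. In males r was 0.37 (permutation p = 0.244). The female relation thus did not pass the correction. Among males, Slc10a1 and Slco1a4 gave r = 0.80 (rho = 0.73, permutation p = 0.00182, adjusted p = 0.0328) and 0.68 without the 2 farthest livers, against r = 0.08 in females, while Abcb11 and Abcc2 gave r = -0.84 (rho = -0.73, permutation p = 0.00057, adjusted p = 0.0171) and -0.63, against -0.20 in females. In females Abcb4 and Abcg8 gave r = 0.86 (rho = 0.83, permutation p = 0.00041, adjusted p = 0.0171) and 0.78, against 0.05 in males. These adjusted values are those of Pearson's r, and for rho they were 0.088, 0.088 and 0.0576. Whether the genders differed in these relations was not tested.

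In fetal liver, where 5 members were high enough for 10 pairs, 5 pairs had an adjusted p of Pearson's r under 0.05. Slco1b2 correlated with Abcb11 (r = 0.67, rho = 0.63), Slc10a1 with Abcb11 (r = 0.64, rho = 0.55) and Slco1b2 with Abcc2 (r = 0.62, rho = 0.51), each with an adjusted p of 0.00383 by permutation. Without the 2 farthest livers these values were 0.53, 0.49 and 0.47. The uptake carriers Slc10a1 and Slco1b2 thus each varied with Abcb11 among fetal livers after the gender mean was removed. Slc10a1 and Slco1b2 had r = 0.55 (rho = 0.48, adjusted p = 0.0185), while Abcc2 and Abcb4 had r = -0.35 (rho = -0.45, adjusted p = 0.0272). Slc10a1 and Abcb4 had r = -0.28 (permutation, adjusted p = 0.275) but rho = -0.60 (permutation, adjusted p = 0.0162). The members of a pair share each library's total and its share of reads outside genes.

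The genes most like Slco1a1 over the 24 adult livers, by Pearson's r of log2 (CPM + 0.5) after subtraction of the gender mean among 9897 genes, included Hsd3b5 (r = 0.84) and Slc22a28 (0.82). Those most like Slco1a4 were Dhtkd1 (0.81), Ugt2a3 (0.80) and Upp2 (0.79), and those most like Abcg5, leaving out the members, were Mgrn1 (0.80), Dock5 (0.73) and Acot12 (0.73). These are the highest of many values and carry no test.

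The wider transport pathway was described with lists of related genes. Between stages, 31.7% of all genes tested were called higher in adult liver and 35.4% lower. The shares were 18.4% and 53.9% with library totals alone, and 11% and 71.7% with hepatocyte scaling. Of 8 other genes listed with the canalicular and biliary exporters, 7 were tested between stages, 5 were higher and 2 lower in adult liver. Slc47a1, which extrudes organic cations, rose from 51.1 to 66.2 CPM in fetal to 116 to 241 CPM in adult liver (log2 2.11, SE 0.0466, adjusted p = 4.95e-43), and Abcc6 rose by a log2 of 2.01 (SE 0.0445, adjusted p = 5.08e-43). Abcg2, an exporter of sulfate conjugates and drugs, fell by 0.93 on the log2 scale averaged over the genders, and the copper pump Atp7b fell by 0.76. The fall of Abcg2 was larger in females, with medians from 320 to 69.9 CPM, than in males, with medians from 302 to 172 CPM. Of 5 basolateral exporters 3 were tested: Abcc3, which returns conjugates to the blood, rose from 36.2 to 54.2 CPM to 297 to 503 CPM (log2 3.63, SE 0.0492, adjusted p = 2.89e-53), and Abcc4 had a log2 of -0.84 (SE 0.0825, adjusted p = 8.11e-14). Of the first list 3 were higher and 2 lower with library totals alone, and 2 and 2 with hepatocyte scaling, and for the basolateral list both gave 1 and 2.

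Of 14 other Slco and Slc10 carriers, 8 were tested between stages, with 4 higher and 2 lower in adult liver (2 and 4 with library totals alone, 2 and 5 with hepatocyte scaling). Slc10a2, known as the ileal bile acid carrier, was at 11.2 to 63.0 CPM in adult liver and at most 0.433 CPM in fetal liver (adjusted p = 5.12e-26). Its 3 fetal reads all came from female 22, and the ratio of summed levels was 1380 (exact 95% counting interval 471 to 6696). Without that library no fetal read was left to form a ratio. Slc10a5 rose by a log2 of 2.47. Slco4c1 went the other way, from 6.53 to 15.7 CPM in fetal liver to at most 0.338 CPM in adult liver (adjusted p = 9.06e-34), where 2 reads were found and the fetal level was 390.2 times the adult one (108 to 3225), and Slco4a1 had a log2 of -3.51. Of 9 genes for canalicular trafficking and scaffolding, 4 were higher and 1 lower: the membrane-cytoskeleton linker Ezr fell from 71.8 to 219 CPM to 3.82 to 14.8 CPM (log2 -2.82). The highest fetal value of Ezr was that of female 14, the library with intestine markers. The scaffold genes Slc9a3r1 (log2 1.06) and Pdzk1 (0.72) were among the higher ones, but turned to -0.07 and -0.42 with hepatocyte scaling, where 0 trafficking genes were higher and 6 lower. All 10 transcriptional regulators of the transporters were called higher in adult liver, against 9 with library totals alone and 6 with hepatocyte scaling. The shares of all genes called higher in these 3 fits were 31.7%, 18.4% and 11%. Their median log2 was 1.84, among them the oxysterol receptor gene Nr1h3 (2.56, SE 0.0442, adjusted p = 2.56e-48) and Nr5a2 (1.62, SE 0.0415, adjusted p = 6.75e-40).

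Between adult genders 4 genes of these lists were called, 1 higher and 3 lower in males, where 3.01% of all genes were called higher and 6.49% lower. Abcg2 was at 134 to 230 CPM in males and 38.1 to 77.4 CPM in females, without overlap (log2 1.37, SE 0.0886, adjusted p = 9.23e-14). Abcb1a, a multidrug exporter, was at 2.33 to 7.57 CPM in males and 8.65 to 26.7 CPM in females, also without overlap (log2 -1.96, SE 0.178, adjusted p = 2.01e-10). Abcc4 was lower in males (log2 -0.73, SE 0.163, adjusted p = 0.000998), at 1.86 to 6.73 against 4.39 to 14.5 CPM. Among the 10 regulators 1 was called, Nr1i3, the constitutive androstane receptor gene, at 77.1 to 182 CPM in males and 118 to 309 CPM in females (log2 -0.68, SE 0.138, adjusted p = 0.000675). By edgeR 0 of 6 other Slco and Slc10 carriers tested and 0 of 9 trafficking genes were called, with 0 and 3 at an unadjusted p under 0.05, and DESeq2 called 0 of both.

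In the interaction test 7, 3, 8, 9 and 10 genes of these lists, in the order above, were tested. Of all genes, 5.18% were called with a larger and 8.53% with a smaller male/female value in adult liver. Abcg2 (1.49, SE 0.112, adjusted p = 6.57e-16), Abcb1a (-1.53, SE 0.221, adjusted p = 4.08e-07), Abcc4 (-1.03, SE 0.168, adjusted p = 4.67e-06), Nr1i3 (-0.74, SE 0.228, adjusted p = 0.0135) and Slc9a3r1 (0.51, SE 0.107, adjusted p = 0.000236) were called. Slco4a1 was also called (-1.95, SE 0.878, adjusted p = 0.0939), from at most 1.28 CPM in adult liver, a call lost in 9 of 12 alternative fits. Between genders in fetal liver, 7, 3, 7, 9 and 9 genes of these lists were tested, and 4.64% of all genes were called. Of the list genes 1 was called, Slco2a1, a prostaglandin carrier, at 29.1 to 75.4 CPM in males and 20.02 to 35.1 CPM in females (log2 0.69, SE 0.126, adjusted p = 0.000222). With the share of reads outside genes as a covariate its log2 was 0.11, in a fit that cannot tell gender and that share apart.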

How the data were processed

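Read counts of 64 libraries were analysed: 4 of 2i ES cells, 12 of eight-cell embryos, 24 of fetal liver and 24 of adult liver, grouped by the Stage and gender labels. The authors deposited raw counts, whole numbers of reads per gene from HTSeq, without normalization. Per the labels, reads were aligned to mm10 with TopHat2 2.0.4 and Bowtie2 2.1.0, handled with SAMtools 0.1.18, and freed of duplicates with Picard. The strand setting of the counting is not given in the sources used here. HTSeq leaves out reads that fit 2 genes, and removal of duplicates caps the counts of highly expressed genes.

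CPM are counts over the library's total on genes, from which the 5 summary rows of HTSeq were left out. Totals ranged from 1567583 to 10386931, so that adult livers had the least precision. Comparisons used edgeR 4.0.16 in R 4.3.3 (TMM factors, filterByExpr, robust dispersion and quasi-likelihood fits, two-sided F tests) with Benjamini-Hochberg adjustment over all genes tested. Genes with an adjusted p under 0.1 and an absolute log2 above 0.5 were called, the thresholds used in the study, which ran DESeq2. The SE is the absolute log2 over the square root of F, and approximate 95% intervals are the log2 ± 1.96 SE. Stage and interaction were fitted in the 48 livers, and genders within each stage. Correlations used log2 (CPM + 0.5) and permutation tests with 100000 resamples, two-sided, in Python 3.11.15 with numpy 2.4.6, pandas 2.3.3 and scipy 1.17.1. Figures were drawn with matplotlib 3.10.9. The fits were tested on simulated data.

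The members, gene lists, marker lists and tests were chosen with earlier results of these data known. All 10 members were named, and of each pathway list the 2 genes with the smallest adjusted p among those called in each direction. For Slco1a1, Slco1a4 and Abcg5, the 3 genes outside the members with the most similar levels in adult liver were also named for each, and 1 of these results is not reported here. Other genes named were neighbours, defining markers or genes that mark libraries that stood apart. Exon lengths and shared 50-base words came from GENCODE release 21 on GRCm38, the same assembly as mm10, and promoter windows from RefSeq. The alternatives were DESeq2 1.42.0, its size factors within edgeR, library totals alone, scaling to hepatocyte markers, no expression filter, no fold threshold, the library total as a covariate, a joint fit of the livers and a replicate block. The share of reads outside genes as a covariate, fits without fetal females 14 and 22 or female 22 alone, and adult livers with under 32% of reads outside genes only were chosen after seeing the data. Replicate numbers run through both genders of each liver stage and were not read as pairs: over 24 pairs of the same number, the correlation of deviations from the group means was -0.0934 to 0.0460, with 0 pairs over 0.1. Libraries of 1 group differed by more than sampling noise (smallest chi-square per degree of freedom 1.91).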

Additional observations from a re-analysis of the deposited data

Results flagged for a closer look

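Of 20 groups of 6 eight-cell embryos, 1 for each member and gender, 8 had any reads of the member. In 7 of these 1 embryo lay far from the others, of which 4 or 5 were at 0. With so few reads the rate of about 1 in 20 groups that chance marks does not apply, and the values are given as a description. For Slc10a1 these were male embryo 6 with 0.150 CPM from 1 read and female embryo 12 with 6.59 CPM from 37 reads. For Abcb11 they were male embryo 4 with 1.55 CPM from 12 reads and female embryo 7 with 1.15 CPM from 8 reads. Female embryo 7 also had 2.58 CPM of Slco2b1 from 18 reads. Abcc2 reached 7.88 CPM from 42 reads in male embryo 1, and Abcg8 reached 0.362 CPM from 2 reads in female embryo 8. The values from 1 and 2 reads lay under the level of 3 reads in their libraries, 0.450 and 0.544 CPM. The embryos' cDNA was amplified before sequencing, and its part in these values was not tested.

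The male/female log2 of Slco1a1 differed between adult and fetal liver by 3.23 in the interaction test of the 48 livers. The value was 1.94 without fetal female 22, which held 50 of the 108 fetal reads of this gene and 48.5 CPM of Mup20, and 1.97 and no longer called without females 14 and 22.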

How the results depend on the processing

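Of 135 counts, 125 stayed within 1.5 times their value under the alternatives, and of 720 values of single genes 677 kept their direction and their side of the threshold, with 19 reversed, 20 no longer called and 4 newly called. The calls of all 10 members between stages and of Slco1a1 and Slco1a4 between adult genders held in every fit run. Without a fold threshold, called genes rose from 600 to 4807 in fetal liver, from 985 to 3399 in adult liver and from 1786 to 4382 in the interaction, and members from 0 to 1 higher in fetal and from 1 to 4 lower in adult liver. Without the expression filter, 1057 fetal and 1518 adult genes were called. With the share of reads outside genes as a covariate, 9 fetal and 1179 interaction genes were called, but in fetal liver that share and gender cannot be told apart. Without fetal females 14 and 22, 0 members were called in the interaction.

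Reversed values, with hepatocyte scaling, were Slc9a3r1 (-0.072) and Pdzk1 (-0.42) between stages, Slco2b1 (0.026), Abcb4 (0.068) and Abcg8 (0.081) between adult genders, and Abcc2 (0.048) and Abcb4 (0.0074) in the interaction. With the share outside genes they were Slco2b1 (0.28), Abcc2 (-0.15) and Abcb4 (-0.0016) in fetal liver and Slco2b1 (-0.049) and Abcc2 (0.25) in the interaction. Without females 14 and 22 they were fetal Slco2b1 (0.070) and, in the interaction, Slco2b1 (-0.11) and Abcg5 (-0.10). With the library total as a covariate they were fetal Slco1b2 (0.0058) and Abcc2 in the interaction (0.076), which was 0.0083 without the filter. Adult Abcg8 was 0.14 in livers under 32% of reads outside genes. The causes were not tested, and none of these but Slc9a3r1 and Pdzk1 was called to begin with. With the replicate number as a block, 8731 genes were called between stages (8742 without) and 1662 in the interaction (1786 without), and the Slco1a1 interaction was 3.10. Of 24 fetal livers, 1 correlated best with the adult liver of its own number, and the block changed no member's call.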
